A study of Mus musculus with 24 samples.

Results

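The effect of voluntary running on gene expression in the dentate gyrus was measured in 19 RNA-seq libraries of APP/PS1 mice, of 24 in the series. It was taken as the mean of the 2 groups with a wheel minus the mean of the 2 groups without, each group weighted by 0.5. The wheel groups were exercise (APP/PS1 mice with free access to a running wheel for 1 month, 5 libraries) and BCI-838 + exercise (the wheel together with the drug, 5 libraries). The groups without a wheel were APP/PS1 control (neither drug nor wheel, 5 libraries) and BCI-838 (the drug alone, 4 libraries). All 4 groups therefore carry the APP and PS1 transgenes. Mice took 5 mg/kg of BCI-838 by mouth each day for 1 month. The compound is a pro-drug whose product blocks the glutamate receptors encoded by Grm2 and Grm3. Per the series design treatment was with drug or vehicle. That design gives 5 mice per group for each study of sacrificed mice but does not tie a mouse to a library, so p-values measure the spread between these libraries. The labels give neither the age of the mice nor the promoters of the transgenes. The 5 wild-type libraries had no wheel group and entered only an alternative fit.

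The dentate gyrus is the entry station of the hippocampal circuit and a site where neurons are added in adult life. Stem cells at the inner edge of its granule cell layer give rise to dividing progenitors, then to neuroblasts that express Dcx, and at last to granule neurons. Voluntary running is known to raise the number of new granule neurons in rodents and to raise the neurotrophin Bdnf in the hippocampus, while bone morphogenetic proteins (BMPs) hold the stem cells at rest.

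Total counts ran from 51407295 to 64632882 per library, and 18155 of 26667 genes passed the filter on low counts. Levels below are CPM, read counts relative to library size with TMM scaling. All 17 listed markers of granule neurons were measured, with a mean log2 CPM of 5.61 to 6.80 with a wheel against 5.46 to 7.04 without, and all were detected. Markers of neighbouring structures were present too, unevenly. Ttr, the main transcript of the choroid plexus, was at most 7.91 CPM in the exercise libraries, against over 100 CPM in APP/PS1 control replicates 2, 4 and 5. It exceeded 100 CPM in BCI-838 + exercise replicate 5, against at most 2.51 CPM in the BCI-838 libraries. Pax7, a transcription factor of the dorsal midbrain, was at most 3.94 CPM in the BCI-838 + exercise libraries, against 6.74 to 13.4 CPM in all 4 BCI-838 libraries. It also reached 16.1 CPM in exercise replicate 4 and 9.95 CPM in APP/PS1 control replicate 1, and was at 0 in at least 1 library of each of those groups and of the BCI-838 + exercise group. Leaving out every library with high Pax7 would remove the whole BCI-838 group, so a wheel effect measured in the presence of the drug and a difference in midbrain tissue cannot be told apart there. Loci that take up ribosomal RNA reads, a sign of library quality, held 0.167% to 0.230% of counts in the exercise libraries against 0.259% to 0.406% in the APP/PS1 controls, and their part in the results was not tested. Nor can fewer cells of a type and less RNA per cell be told apart in RNA from tissue.

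No gene was called for the wheel averaged over drug status, which is 0% of the 18155 genes tested, by the quasi-likelihood test of edgeR at a Benjamini-Hochberg adjusted p under 0.05. The lowest adjusted p in that edgeR test was 0.213, shared by Sulf1, Emb and Plbd1, which were lower with a wheel, and Lor, which was higher. At an unadjusted p under 0.05 there were 1050 genes higher (5.78%) and 881 lower (4.85%). DESeq2 called 24 genes, 6 higher and 18 lower, and voom with quality weights called 1, Lor. The median standard error of a log2 fold change was 0.10. The genes named below were not called by edgeR in this fit, so their values are given as measured differences. They are those with the smallest p in each direction, members of gene lists, genes that are always given, or genes chosen otherwise where so stated.

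The averaged contrast joins a pair of comparisons that share no library, exercise against APP/PS1 control and BCI-838 + exercise against BCI-838, and the genes can be read in each. All 10 wheel libraries lay above all 9 others for 0 genes (0%) and below them for 1 gene (0.00551%), Plbd1. Plbd1 passed the filter on low counts through the libraries without a wheel, where it was higher. Its separation is therefore given as a description and not as support for a wheel effect. Lying apart the same way in both comparisons held for 2 genes (0.011%). These were Plbd1 and B230119M05Rik, a clone-named gene outside the naming rule that is given because of this count.

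Plbd1, a phospholipase-like protein known from granulocytes and monocytes, and Emb, embigin, a cell-surface glycoprotein that accompanies monocarboxylate transporters, had nearly equal log2 fold changes without and with the drug. Their promoter sequences, from 250 bases before to 50 bases after the annotated start in RefSeq GRCm38.p6, are printed here because at least 9 of 10 wheel libraries lay below every library without a wheel for both genes, with the bases from the start of transcription in capitals. The Plbd1 sequence is chr6:136661844-136662143 on the minus strand and the Emb sequence is chr13:117220323-117220622 on the plus strand.
Plbd1: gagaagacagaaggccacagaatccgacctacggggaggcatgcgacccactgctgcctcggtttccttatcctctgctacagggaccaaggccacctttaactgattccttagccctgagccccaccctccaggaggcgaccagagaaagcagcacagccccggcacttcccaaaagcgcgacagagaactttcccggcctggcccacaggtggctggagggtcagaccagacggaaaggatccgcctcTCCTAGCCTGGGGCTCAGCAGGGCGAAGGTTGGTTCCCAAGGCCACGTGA
Emb: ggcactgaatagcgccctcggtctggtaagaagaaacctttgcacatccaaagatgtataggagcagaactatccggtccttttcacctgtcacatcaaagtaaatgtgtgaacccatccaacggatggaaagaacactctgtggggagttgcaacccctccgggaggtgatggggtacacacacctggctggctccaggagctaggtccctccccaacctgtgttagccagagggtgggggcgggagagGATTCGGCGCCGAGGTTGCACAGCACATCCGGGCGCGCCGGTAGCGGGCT

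Plbd1 had 0.0723, 0.121, 0.184, 0.0810 and 0.144 CPM in the exercise libraries, against 0.214, 0.482, 0.195, 0.563 and 0.247 CPM in the APP/PS1 controls. With the drug, Plbd1 had 0.0742, 0.0931, 0.101, 0.0655 and 0.0949 CPM in the BCI-838 + exercise libraries, against 0.283, 0.206, 0.270 and 0.205 CPM in the BCI-838 libraries. The lowest wheel-free library was thus above the highest wheel library, although the values rest on only 4 to 31 reads each. The log2 fold change averaged -1.48 (SE 0.28), with -1.48 without the drug and -1.47 with it (averaged, adjusted p = 0.213 by the edgeR quasi-likelihood test, not called, and 0.0153 by DESeq2). B230119M05Rik, at most 0.396 CPM in any library, had a log2 fold change of -1.05 (SE 0.31).

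Emb had 16, 13.9, 18.9, 22.6 and 14 CPM in the exercise libraries, against 19.7, 23.3, 27.9, 30.6 and 22.2 CPM in the APP/PS1 controls. With the drug, Emb had 13.8, 17.8, 15.3, 17.1 and 13.5 CPM in the BCI-838 + exercise libraries, against 19.7, 21.04, 24.6 and 26.9 CPM in the BCI-838 libraries. In 9 of 10 wheel libraries Emb was below the lowest library without a wheel, and exercise replicate 4 was the exception. Its mean was 17.1 ± 3.69 CPM in the exercise group against 24.7 ± 4.44 CPM in the APP/PS1 controls (SD, n = 5 each), and 15.5 ± 1.93 CPM with both treatments (SD, n = 5) against 23.1 ± 3.27 CPM with BCI-838 (SD, n = 4). The log2 fold changes were -0.53 (SE 0.14) without the drug and -0.57 (SE 0.15) with it, and -0.55 (SE 0.11) averaged (adjusted p = 0.213 by edgeR, not called; 0.00402 by DESeq2). Emb shares exonic sequence with the predicted gene Gm17509 on the opposite strand, and whether counting used strand is not given in the sources used here.

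Sulf1 and Bmp7 act outside the cell on growth factor signals, and both were lower with a wheel. Bmp7 was named as a member of the BMP and Wnt signalling list, not among the genes with the smallest p overall. Sulf1 (chr1:12692277-12861192 in GRCm38) encodes an enzyme that removes sulfate groups from heparan sulfate and so alters the access of growth factors to their receptors. Sulf1 had 3.47, 4.198, 3.75, 5.603 and 3.16 CPM in the exercise libraries, against 6.75, 11.9, 10.4, 26.2 and 17.2 CPM in the APP/PS1 controls. With the drug, Sulf1 had 4.52, 3.47, 5.58, 4.29 and 4.71 CPM in the BCI-838 + exercise libraries, against 5.33, 4.78, 5.504 and 8.21 CPM in the BCI-838 libraries. All 5 exercise libraries were below every APP/PS1 control, while the BCI-838 + exercise and BCI-838 libraries overlapped. The log2 fold change was -1.84 (SE 0.28) without the drug, which had the lowest adjusted p of that comparison (0.0622 by edgeR, not called), and -0.40 (SE 0.29) with it. Averaged it was -1.12 (SE 0.20), and -0.75 without the 4 libraries of high Ttr, which include the 3 APP/PS1 controls with the highest Sulf1. By DESeq2 the adjusted p of Sulf1 was 0.000468 averaged and 3.47e-07 without the drug. Without APP/PS1 control replicate 1, the control with the lowest Sulf1, edgeR called Sulf1 (adjusted p = 0.0336 averaged and 0.00378 without the drug). The fit of all 24 libraries called it without the drug (adjusted p = 0.0292). In other edgeR fits without the drug it was -1.14 with the choroid plexus covariate (adjusted p = 0.99971), -1.09 without the libraries of high Ttr (adjusted p = 0.8005) and -1.79 without APP/PS1 control replicate 5 (adjusted p = 0.254). Averaged, it was -0.67 with both tissue covariates.

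Bmp7 had 4.77, 4.16, 3.47, 5.86 and 2.48 CPM in the exercise libraries, against 7.54, 6.696, 5.31, 9.76 and 4.001 CPM in the APP/PS1 controls. With the drug, Bmp7 had 1.45, 3.01, 3.07, 2.85 and 2.66 CPM in the BCI-838 + exercise libraries, against 4.23, 4.59, 4.896 and 4.69 CPM in the BCI-838 libraries. Bmp7, a BMP ligand made among other places by the meninges and choroid plexus, lay apart with the drug and overlapped without it. Its log2 fold change was -0.68 (SE 0.24) without and -0.82 (SE 0.26) with BCI-838, and -0.75 (SE 0.18) averaged (adjusted p = 0.391 by edgeR, not called, and 0.0306 by DESeq2). With the mean log2 CPM of the dorsal midbrain list as a covariate it was -0.42, and with the choroid plexus and midbrain lists together -0.26.

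Of 47 genes of BMP and Wnt signalling, 35 were lower and 12 higher with a wheel, against 9018 lower and 9137 higher among all genes. The median log2 fold change of the list was -0.11, against 0.0013 over all genes, and 23 of 47 members were lower in both comparisons (48.9%, against 25% of all genes). None was called by edgeR, while 9 members were lower (4.85% of all genes) and 2 higher (5.78%) at an unadjusted p under 0.05. Leaving out 1 library gave 9 such members (without BCI-838 replicate 4) to 17 (without exercise replicate 4) in either direction. The count over all genes was 1289 and 2956 in those 2 fits, against 1931 in the full fit. Smad9, which relays BMP receptor signals, was at 14.2 to 23.2 CPM with a wheel (median 17.3), against 15.1 to 29.7 CPM without (median 22.2), and its log2 fold change was -0.04 (SE 0.12) without the drug and -0.55 (SE 0.13) with it. With the midbrain covariate the median of the list was -0.07, and with both tissue covariates -0.04.

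Siglec1, the macrophage receptor sialoadhesin, was among the lowest genes by p. Siglec1 had 0.253, 0.312, 0.349, 0.211 and 0.180 CPM in the exercise libraries, against 0.321, 0.482, 0.504, 0.473 and 0.300 CPM in the APP/PS1 controls. With the drug, Siglec1 had 0.0371, 0.171, 0.162, 0.0328 and 0.114 CPM in the BCI-838 + exercise libraries, against 0.478, 0.361, 0.371 and 0.513 CPM in the BCI-838 libraries. The BCI-838 + exercise libraries lay below every BCI-838 library, and 3 of 5 exercise libraries lay below every APP/PS1 control. Its log2 fold change was -0.67 (SE 0.37) without the drug, -2.04 (SE 0.42) with it and -1.35 (SE 0.28) averaged (adjusted p = 0.327 by edgeR, not called; 0.00402 by DESeq2), from 2 to 31 reads a library.

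A further 7 genes named as lower span several functions. Mak, a kinase of germ and photoreceptor cells, was at 1.28 to 2.22 CPM with a wheel (median 1.64), against 2.01 to 3.57 CPM without (median 2.598), and its log2 fold changes were -0.73 and -0.58 without and with the drug. Lepr, the leptin receptor, was at 1.15 to 2.96 CPM with a wheel (median 2.18), against 2.75 to 6.14 CPM without (median 3.43), and 8 of 10 wheel libraries were below the lowest library without a wheel. A2m, a secreted protease inhibitor, was at 2.39 to 7.53 CPM with a wheel (median 6.07), against 5.996 to 20.6 CPM without (median 11.01). Esm1, a proteoglycan secreted by endothelial cells, had a log2 fold change of -1.24 (SE 0.27) at no more than 0.832 CPM. Tnni3, cardiac troponin I, had a log2 fold change of -0.97 (SE 0.20). Agpat2, an enzyme of glycerolipid synthesis, had a log2 fold change of -0.66 (SE 0.16) and the zinc finger gene Zfp54 a log2 fold change of -0.54 (SE 0.12). These 7 had edgeR adjusted p-values of 0.327 to 0.391, and DESeq2 called all 7. Tnni3 shares an exon with Dnaaf3 on its own strand, and Agpat2 and Zfp54 overlap Egfl7 and Gm49691 on the other.

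**Figure D1:**
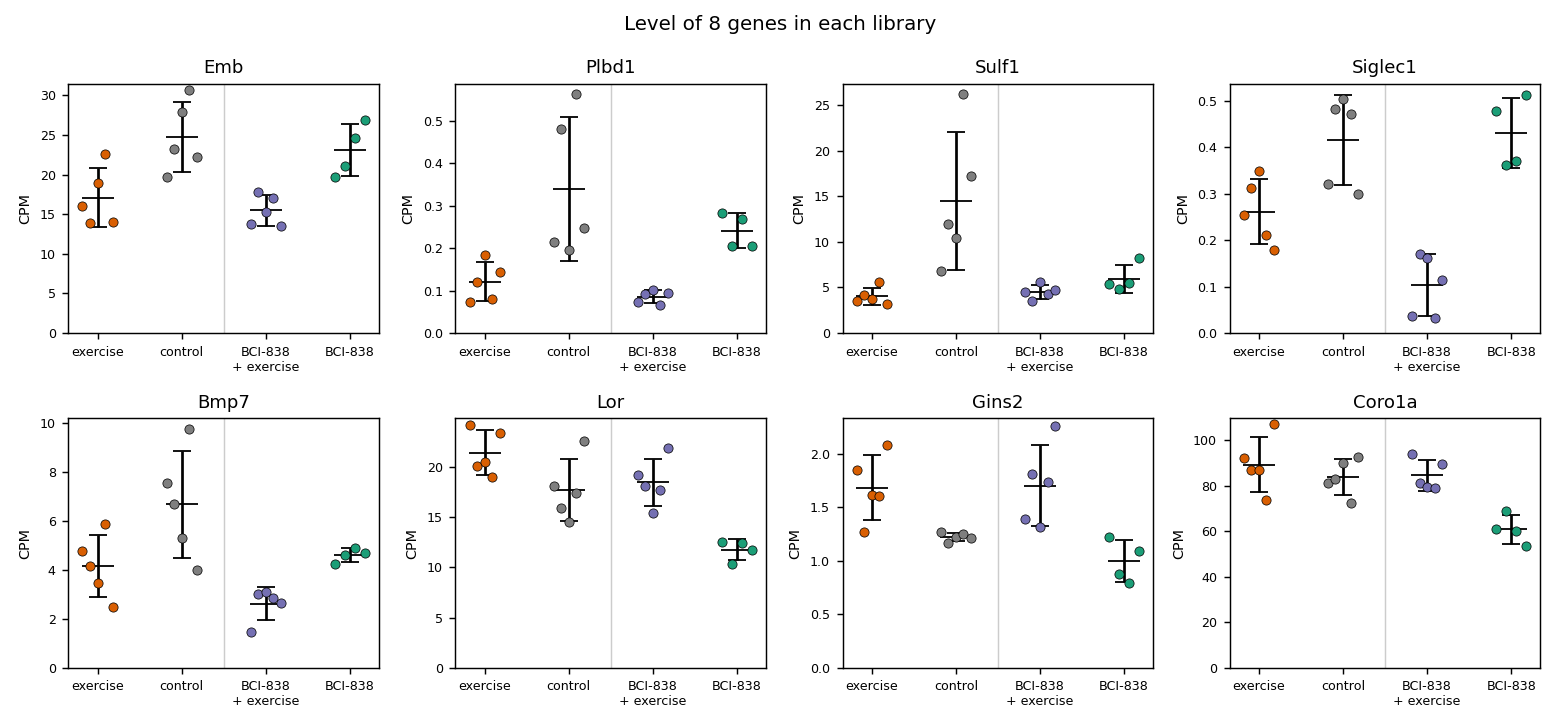
CPM of 8 genes in each of the 19 libraries, with the exercise and APP/PS1 control groups left of the grey line and the BCI-838 + exercise and BCI-838 groups right of it. Points are libraries, and bars give the mean and SD (n = 5, and n = 4 for BCI-838). Emb, Plbd1, Siglec1 and Bmp7 were lower on average with a wheel on both sides of the line, and Lor and Gins2 higher.

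Among the genes named as higher with a wheel, Lor, loricrin, a structural protein of the cornified layer of skin, had the smallest p. Lor had 24.1, 20.1, 20.4, 18.9 and 23.4 CPM in the exercise libraries, against 18.1, 15.9, 14.5, 17.4 and 22.5 CPM in the APP/PS1 controls. With the drug, Lor had 19.2, 18.1, 15.4, 17.7 and 21.8 CPM in the BCI-838 + exercise libraries, against 12.5, 10.3, 12.4 and 11.8 CPM in the BCI-838 libraries. The groups overlapped without the drug and lay apart with it, and the log2 fold change was 0.28 (SE 0.11) and 0.65 (SE 0.12) without and with BCI-838, and 0.46 (SE 0.08) averaged (adjusted p = 0.213 by edgeR, not called; 0.00166 by DESeq2). Without APP/PS1 control replicate 5, the control with the highest Lor, edgeR called Lor (adjusted p = 0.0390). Gins2, a subunit of the GINS complex that works at DNA replication forks and is used by dividing cells, came after Lor and B3gnt3 by p among the genes named as higher. Gins2 had 1.84, 1.27, 1.62, 1.603 and 2.09 CPM in the exercise libraries, against 1.27, 1.17, 1.22, 1.25 and 1.22 CPM in the APP/PS1 controls. With the drug, Gins2 had 1.39, 1.81, 1.31, 1.74 and 2.26 CPM in the BCI-838 + exercise libraries, against 1.22, 0.877, 0.793 and 1.09 CPM in the BCI-838 libraries. Exercise replicate 2 was the wheel library inside the range of the others, and the other 9 were above all libraries without a wheel. The log2 fold change of Gins2 was 0.62 (SE 0.13) averaged (adjusted p = 0.327 by edgeR, not called, and 0.0135 by DESeq2). It rests on 47 to 119 reads a library, and the gene overlaps Gse1 on the opposite strand.

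The remaining genes named as higher were B3gnt3, a glycosyltransferase, at 0.769 to 1.65 CPM with a wheel (median 1.11), against 0.371 to 1.01 CPM without (median 0.671), with a log2 fold change of 0.83 (SE 0.18), and 9 genes whose averaged log2 fold change lay between 0.23 and 0.65. Coro1a, coronin 1A, an actin-binding protein of leukocytes and neurons, was at 73.6 to 107 CPM with a wheel (median 86.99), against 53.4 to 92.5 CPM without (median 72.6), with a log2 fold change of 0.28 (SE 0.07). Sepw1, the small selenoprotein W, was at 367 to 736 CPM with a wheel (median 528), against 317 to 572 CPM without (median 401), with a log2 fold change of 0.45 (SE 0.11). Zdhhc12, a palmitoyltransferase, had log2 fold changes of 0.25 without and 0.56 with the drug, and Tpst2, which sulfates tyrosines of secreted proteins, 0.26 and 0.40. Exosc4, a subunit of the RNA exosome, had 0.19 and 0.27. For Rgnef, a guanine nucleotide exchange factor, the value was -0.01 without the drug and 1.03 with it. Cryl1, a sugar dehydrogenase, had 0.17 and 0.53, Cdc40, a splicing factor, 0.19 and 0.71, and the keratin gene Krt20 0.11 and 1.19. Among these 10 genes DESeq2 called B3gnt3, Zdhhc12, Cryl1 and Rgnef. Coro1a overlaps Bola2, Exosc4 overlaps Oplah and Zdhhc12 overlaps Pkn3 on the other strand.

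Markers of resting microglia had the largest share of members higher in both comparisons among the 37 gene lists. Of 18 homeostatic microglia genes, 16 were higher averaged over drug status and 16 were higher in both comparisons (88.9%, against 26.6% of all genes). The median log2 fold change was 0.15, with 0.08 without and 0.20 with the drug. None was called by edgeR, while 6 were higher (5.78% of all genes) and 1 lower (4.85%) at an unadjusted p under 0.05. Leaving out 1 library gave 4 such members (without exercise replicate 5, BCI-838 + exercise replicate 5, APP/PS1 control replicate 4 or BCI-838 replicate 3) to 12 (without BCI-838 + exercise replicate 2) in either direction. Without BCI-838 + exercise replicate 2 the count over all genes was 2080, against 1931 in the full fit, and it ran from 1289 to 2956 when other libraries were left out. Tmem119, a surface marker of microglia, was at 16.2 to 25.7 CPM with a wheel (median 19.3), against 15.7 to 18.3 CPM without (median 17.3), and its log2 fold change was 0.24 (SE 0.11) without and 0.24 (SE 0.12) with the drug. P2ry12, the purinergic receptor that steers microglial processes, was at 28.5 to 39.6 CPM with a wheel (median 33.4), against 24.3 to 32.3 CPM without (median 29.9), and 7 of 10 wheel libraries exceeded every library without a wheel for each of these 2 genes. Gpr34, a microglial receptor, had a log2 fold change of 0.22 (SE 0.08). P2ry12 lies within Med12l, which is transcribed from the opposite strand. The mean log2 CPM of the list was 4.29 to 4.72 with a wheel against 4.30 to 4.50 without, so the libraries overlapped, and the median of the list was 0.05 with the midbrain covariate and 0.03 with both tissue covariates.

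Genes that microglia induce around plaques showed no common direction, with 14 of 26 higher and a median of 0.01. Lyz2, lysozyme of macrophages and activated microglia, was lower at 4.19 to 6.38 CPM with a wheel (median 5.74), against 5.18 to 9.43 CPM without (median 6.97), with a log2 fold change of -0.34 (SE 0.15) without and -0.40 (SE 0.16) with the drug. Of 16 complement genes 7 were higher (median -0.09), and C1qc, made by microglia, had a log2 fold change of 0.19 (SE 0.07). Of 26 interferon-stimulated genes 12 were higher (median -0.01). At an unadjusted p under 0.05, 0 of them were higher (5.78% of all genes) and 0 lower (4.85%).

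The lists for energy metabolism and protein synthesis had averaged medians of 0.09 and 0.08. Of 73 genes of the respiratory chain and ATP synthase, 71 were higher and the median log2 fold change was 0.09, while 49 were higher in both comparisons (67.1%). There were 12 members higher (5.78% of all genes) and 0 lower (4.85%) at an unadjusted p under 0.05. Leaving out 1 library gave 5 members (without exercise replicate 1, 2 or 5, BCI-838 + exercise replicate 2 or 4, or APP/PS1 control replicate 2) to 30 (without exercise replicate 4) at that level. Over all genes the count at that level ran from 1289 to 2956 in these fits, and the 2956 were without exercise replicate 4. Cox6a1, a subunit of cytochrome c oxidase, was at 272 to 395 CPM with a wheel (median 329), against 259 to 323 CPM without (median 283), with a log2 fold change of 0.24 (SE 0.07), and Ndufa5, a subunit of complex I, was at 70.9 to 114 CPM with a wheel (median 101), against 73.4 to 96.1 CPM without (median 79.1), with a log2 fold change of 0.26 (SE 0.08). Of 79 cytosolic ribosomal protein genes 78 were higher, with a median of 0.08. Without the drug 79 of 79 were higher (median 0.16), and 40 with it (median 0.0027). Rps2 had a log2 fold change of 0.19 (SE 0.07) and Rplp2 had 0.17 (SE 0.08). The genes of a list share the same libraries, so their counts are not counts of independent observations. The mean log2 CPM of the ribosomal list was 7.12 to 7.72 in the exercise libraries against 7.20 to 7.49 in the APP/PS1 controls, a wide overlap. With the choroid plexus and midbrain covariates together the median was 0.03 for the respiratory list and 0.03 for the ribosomal list. At an unadjusted p under 0.05 the ribosomal list had 6 members higher (5.78% of all genes) and 0 lower (4.85%). With 1 library left out it had 1 such member (without exercise replicate 1 or 2, BCI-838 + exercise replicate 4 or 5, APP/PS1 control replicate 3 or 4, or BCI-838 replicate 3) to 27 (without exercise replicate 4, where 2956 of all genes were at that level, against 1931 in the full fit). The lowest median of the ribosomal list with 1 library left out was 0.05.

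Lists for the stages of adult neurogenesis had averaged medians between -0.14 and -0.0023. Of 30 proliferation genes 15 were higher and 15 lower, and the median log2 fold change was -0.0023. Cenpe, a motor protein of mitotic chromosomes, was at 1.04 to 3.26 CPM with a wheel (median 1.99), against 1.22 to 2.02 CPM without (median 1.59), with a log2 fold change of 0.33 (SE 0.15). Of 20 neural stem and progenitor genes 14 were lower (median -0.07). Sox2, a transcription factor of stem cells and astrocytes, was at 45.2 to 63.3 CPM with a wheel (median 49.5), against 51.8 to 64.5 CPM without (median 55.7), and its log2 fold change was -0.22 (SE 0.08) without and -0.09 (SE 0.08) with the drug. Of 21 neuroblast and immature neuron genes 16 were lower (median -0.14, with -0.0049 without and -0.37 with the drug), 4 of them at an unadjusted p under 0.05 (4.85% of all genes), where 1 was higher (5.78%). Leaving out 1 library gave 4 such members to 10 (without exercise replicate 4 or APP/PS1 control replicate 5) in either direction. Without these libraries the count over all genes was 2956 and 2651 in the same order, against 1931 in the full fit. Dcx, the defining gene of neuroblasts, had a log2 fold change of -0.26 (SE 0.14), chosen after its values were seen. Cd24a, a surface protein of neuroblasts and of ependyma, was at 2.497 to 5.34 CPM with a wheel (median 3.43), against 3.27 to 8.72 CPM without (median 5.72), with a log2 fold change of -0.62 (SE 0.19), and -0.18 with the choroid plexus and midbrain covariates together. Tac2, a neuropeptide precursor, was at 1.91 to 4.17 CPM with a wheel (median 2.43), against 2.46 to 56.2 CPM without (median 3.44), and Neurod2, a factor of maturing and adult excitatory neurons, was higher at 164 to 355 CPM with a wheel (median 272), against 109 to 397 CPM without (median 174). Of 17 granule neuron genes 7 were higher (median -0.02).

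Of 42 growth factors and receptors linked to exercise 15 were higher and 27 lower (median -0.04). Bdnf, the neurotrophin most often tied to running, had 56, 56.5, 63.4, 36.02 and 72.4 CPM in the exercise libraries, against 52.2, 61.1, 30.6, 50.6 and 77.8 CPM in the APP/PS1 controls. With the drug the Bdnf levels were 122, 56.2, 135, 55.2 and 61.98 CPM in the BCI-838 + exercise libraries, against 64.1, 108, 113 and 66.4 CPM in the BCI-838 libraries. The levels overlapped widely in both comparisons, and the averaged log2 fold change of Bdnf was 0.02 (SE 0.21) (adjusted p = 0.985 by edgeR). Ntf3, another neurotrophin, was at 0.966 to 14.5 CPM with a wheel (median 9.32), against 0.523 to 15.8 CPM without (median 4.81), with a log2 fold change of 0.99 (SE 0.44). Igfbp5, which binds insulin-like growth factors, was lower at 171 to 352 CPM with a wheel (median 250.2), against 265 to 378 CPM without (median 316), with log2 fold changes of -0.23 without and -0.37 with the drug.

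The receptors that the drug is directed at had log2 fold changes near 0. Grm2 was at 37.8 to 141 CPM with a wheel (median 117), against 75.6 to 163 CPM without (median 101), and its averaged log2 fold change was -0.02 (SE 0.20). Grm3 was at 29.6 to 54.3 CPM with a wheel (median 42.2), against 30.5 to 67.2 CPM without (median 46.4), and its value was -0.09 (SE 0.14). Of 7 metabotropic glutamate receptor genes 1 was higher (median -0.06). App and Prnp, whose counts include reads of the transgenes where these carry their sequence, had log2 fold changes of 0.03 (SE 0.08) and 0.07 (SE 0.07), and of 3 transgene-related genes 2 were higher (median 0.03). Grm2 overlaps Gm28111, App overlaps Gm49227 and Bdnf overlaps Gm45346 on the other strand, and Prnp shares exonic sequence with Prn.

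The lists of synaptic genes had higher medians with a wheel, and the comparison with the drug gave the larger values. Of 33 ionotropic glutamate receptor and postsynaptic density genes 26 were higher averaged over drug status (median 0.20). The median was -0.02 without the drug, with 0 members higher at an unadjusted p under 0.05 (2.25% of all genes), and 0.40 with it, with 19 members higher (7.69% of all genes). Camk2a, the kinase of the postsynaptic density, averaged 4196 ± 1107 CPM with exercise against 4042 ± 1006 CPM in APP/PS1 controls, and 5013 ± 1157 CPM with both treatments against 2835 ± 555 CPM with BCI-838 (SD, n = 5, and 4 for BCI-838). Grik5, a kainate receptor subunit, was at 233 to 349 CPM with a wheel (median 315), against 203 to 326 CPM without (median 248), with a log2 fold change of 0.28 (SE 0.08). Markers of CA field pyramidal neurons, the neighbouring hippocampal neurons, were higher in 16 of 21 cases, with a median of -0.09 without and 0.62 with the drug. Dorsal midbrain markers ran the other way, with 14 of 14 lower averaged (median -1.09) and a median of 0.42 without and -2.60 with the drug. With the midbrain covariate the averaged median was 0.07 for the postsynaptic list and 0.08 for the CA field list.

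Of 28 synaptic vesicle and active zone genes 18 were higher (median 0.05, -0.08 without and 0.23 with the drug). Of 18 interneuron genes 12 were higher (median 0.22), and the median was -0.03 with both tissue covariates. The neuropeptides of the list differed in direction. Tac1, the precursor of substance P, was lower at 3.38 to 11.9 CPM with a wheel (median 5.83), against 5.798 to 17.99 CPM without (median 8.96), and Cck, cholecystokinin, was higher at 173 to 439.5 CPM with a wheel (median 212), against 115 to 294 CPM without (median 155). The log2 fold change of Cck was 0.56, and 0.21 with both tissue covariates. Among 16 GABA receptor genes 8 were higher, and Gabra5, the receptor subunit typical of the hippocampus, had a log2 fold change of 0.08 (SE 0.22) without and 0.92 (SE 0.23) with the drug. Of 28 immediate early genes, which neuronal activity induces, 18 were higher (median 0.11). Junb was at 30.5 to 62.4 CPM with a wheel (median 38.5), against 24.2 to 43.5 CPM without (median 31.6), with a log2 fold change of 0.36 (SE 0.14), and 0.08 with the midbrain covariate. Junb overlaps Prdx2 on the opposite strand. Egr4 had a log2 fold change of 0.03 (SE 0.26) without and 0.99 (SE 0.28) with the drug.

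Several lists had medians of opposite sign in the comparisons. With the drug 16 of 18 endothelial and blood-brain barrier genes were lower with a wheel (median log2 fold change -0.14). Without it all 18 were higher in exercise than in APP/PS1 control libraries (median 0.25), 7 of them at an unadjusted p under 0.05 (2.25% of all genes). The mean log2 CPM of the list was 4.37 to 4.54 with both treatments against 4.40 to 4.69 with BCI-838, and 4.58 to 4.91 with exercise against 4.39 to 4.66 in APP/PS1 controls. At an unadjusted p under 0.05, 9 members had a lower wheel effect with the drug than without it (4.63% of all genes) and 0 a higher one (5.47%), and edgeR called none. Mural cell and fibroblast genes had a median of -0.76 with the drug, where 17 of 17 were lower and 10 at an unadjusted p under 0.05 (7.26% of all genes), and 0.17 without it. Lum, a proteoglycan of the meninges, was at 1.05 to 5.24 CPM with a wheel (median 3.301), against 3.15 to 9.197 CPM without (median 5.01), and Col1a2, a fibrillar collagen, at 3.65 to 13.1 CPM with a wheel (median 7.09), against 7.16 to 27.9 CPM without (median 15.2). With the midbrain covariate the averaged median of the mural and fibroblast list was -0.02, and -0.55 without the libraries of high Ttr.

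Choroid plexus and ependyma genes, a measure of neighbouring tissue, were lower in 22 of 22 cases without the drug (median -3.91), 21 of them at an unadjusted p under 0.05 (3.08% of all genes), and higher in 20 with it (median 1.29). The rise with the drug came from 1 library, BCI-838 + exercise replicate 5, with a mean log2 CPM of 2.23 for the list. The median library was at -0.77 in that group, against -0.60 in the BCI-838 group. Without the 4 libraries of high Ttr the averaged median was 0.05, against -1.07 with them. Markers of thalamus and cortex were lower in 15 of 17 cases, with a median of -0.34.

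**Figure D2:**
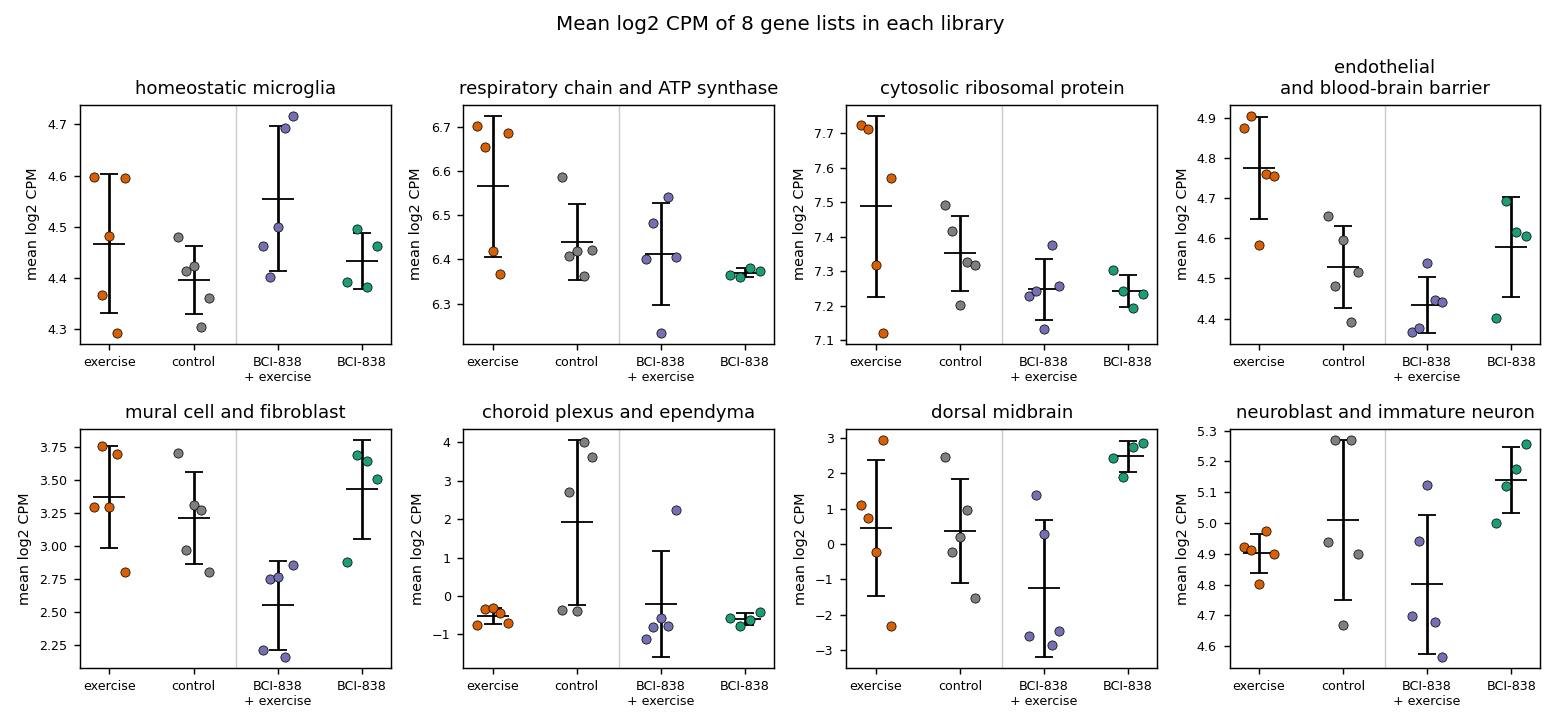
Mean log2 CPM of 8 gene lists in each of the 19 libraries, with groups, points and bars as in the plot of single genes. Homeostatic microglia genes were slightly higher with a wheel on both sides, endothelial genes higher without BCI-838 and lower with it, and the choroid plexus and dorsal midbrain panels show which libraries carried neighbouring tissue.

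Across all 18155 genes the wheel effects with and without the drug could be set side by side, since no library is shared. The log2 fold changes had the same sign for 9379 genes (51.7%), Pearson's r across genes was -0.22 and Spearman's rank correlation was -0.00063, both given as descriptions since genes are not independent. At an unadjusted p under 0.05 in both, 50 genes went the same way and 60 opposite ways. Averaged over drug status 960 genes differed by more than 1.5-fold.

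**Figure D3:**
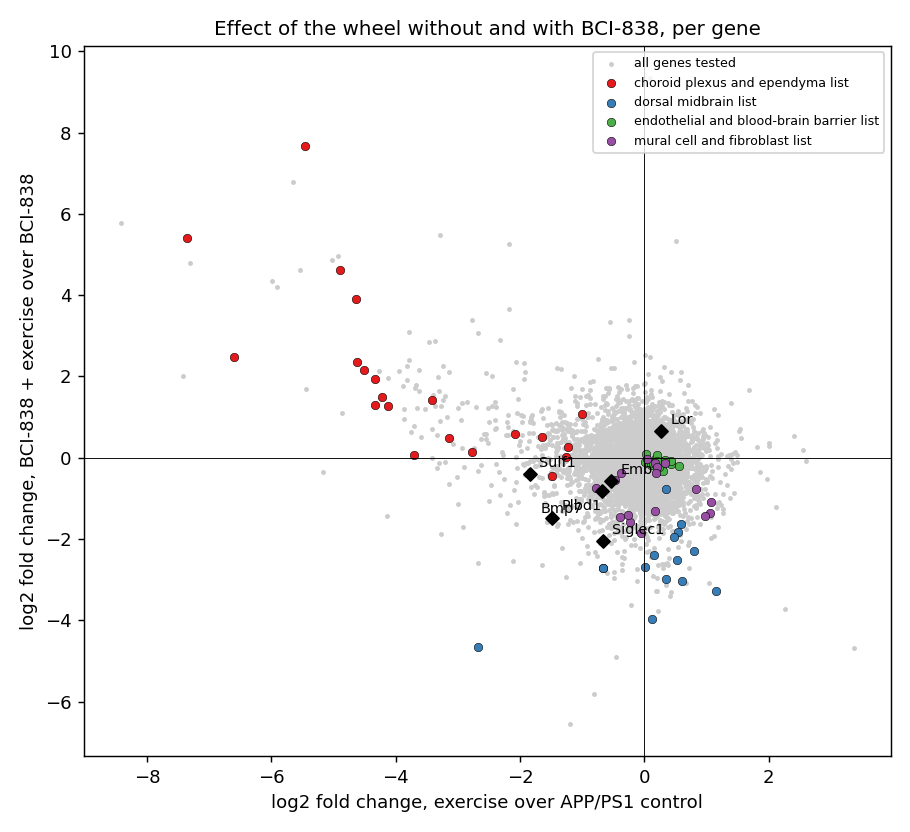
Log2 fold change of each of the 18155 genes for exercise over APP/PS1 control (horizontal) and for BCI-838 + exercise over BCI-838 (vertical). Choroid plexus genes fill the upper left, dorsal midbrain genes the lower edge, and the black diamonds of Emb, Plbd1, Siglec1, Bmp7 and Sulf1 lie at the lower left, where both wheel effects are negative.

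Without the drug no gene was called by edgeR (0%), while 409 were higher (2.25%) and 559 lower (3.08%) at an unadjusted p under 0.05. There were 72 genes called by DESeq2, 1 higher and 71 lower, and voom called 0. There were 44 genes with all exercise libraries above every APP/PS1 control (0.242%) and 59 with all below (0.325%). Slc40a1, ferroportin, the cellular iron exporter, had 9.26, 9.54, 10.7, 9.85 and 10.4 CPM in the exercise libraries, against 7.57, 6.86, 8.58, 6.82 and 7.896 CPM in the APP/PS1 controls. All 5 exercise values were above all 5 controls, and the log2 fold change was 0.40 (SE 0.09), against 0.03 (SE 0.10) with the drug. Tie1, an endothelial receptor, averaged 16.5 ± 3.22 CPM with exercise against 11.3 ± 0.718 CPM in the APP/PS1 controls (SD, n = 5 each), with a log2 fold change of 0.55 (SE 0.14). The blood-brain barrier transporter Slco1a4 was at 0.43 (SE 0.12), the endothelial transcription factor Sox17 at 0.77 (SE 0.22) and the vascular secreted protein Igfbp7 at 0.46 (SE 0.13) on the log2 scale, and -0.15, -0.25 and -0.09 were their values in the same order with the drug. Genes named as lower, beside Sulf1, were Akd1 with a log2 fold change of -3.86 (SE 0.79), Ccdc40 with -1.47 (SE 0.30) and Dnaic2 with -1.11 (SE 0.24), of which Ccdc40 and Dnaic2 are needed for motile cilia, and Slc5a7, the choline transporter of cholinergic neurons, with -3.33 (SE 0.73). Slc5a7 reached 10.3 and 10.2 CPM in APP/PS1 control replicates 2 and 4 and at most 1.04 CPM in any other library. Akd1 was highest in APP/PS1 control replicates 2, 4 and 5, the controls with high Ttr, at 1.54, 2.96 and 1.57 CPM, against 0.351 and 0.439 CPM in replicates 1 and 3. With the choroid plexus covariate Akd1 was at -1.86, Ccdc40 at -0.76 and Slc5a7 at -1.49, and Slc5a7 was at -0.69 without the libraries of high Ttr. Adjusted p-values of these 10 genes by the edgeR quasi-likelihood test were 0.0622 or more.

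With the drug no gene was called either (0% by edgeR), while 1396 were higher (7.69%) and 1318 lower (7.26%) at an unadjusted p under 0.05. The DESeq2 test called 462 genes, 301 higher and 161 lower, and voom called 997, 530 higher and 467 lower. With the midbrain covariate 233 genes had an unadjusted p under 0.05 by edgeR, and 341 with both tissue covariates, against 2714 with neither. In this comparison 783 genes (4.31%) had all BCI-838 + exercise libraries above every BCI-838 library and 715 (3.94%) below. Rgnef averaged 75.3 ± 18.9 CPM with both treatments (SD, n = 5) against 36.9 ± 4.204 CPM with BCI-838 (SD, n = 4). Adra1d, an adrenergic receptor, had 77.9, 61.5, 45.96, 65.02 and 84.2 CPM in the BCI-838 + exercise libraries, against 29.1, 26.9, 28.3 and 11.9 CPM in the BCI-838 libraries, a log2 fold change of 1.48 (SE 0.27). The amino acid transporter Slc7a8 had a log2 fold change of 0.49 (SE 0.09) and the BMP antagonist Nbl1 of 1.06 (SE 0.21). Named as lower were Prr16 with -0.94 (SE 0.17), the acyltransferase Mogat1 with -2.16 (SE 0.45) and Cbr2, a carbonyl reductase, with -1.75 (SE 0.38). Marcks, a substrate of protein kinase C and here a granule cell marker, had 215, 225, 246, 204 and 185 CPM in the BCI-838 + exercise libraries, against 271, 271, 288 and 281 CPM in the BCI-838 libraries, and a log2 fold change of -0.37 (SE 0.08), against -0.08 (SE 0.07) without the drug. Adjusted p-values by edgeR were 0.143 or more. Adra1d overlaps Gm14285 and Mogat1 overlaps BC035947 on the other strand. The difference in dorsal midbrain markers runs along this comparison and cannot be told apart from it.

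The difference between the wheel effects with and without the drug was tested directly, and no gene was called (0%; lowest adjusted p = 0.360 by edgeR). At an unadjusted p under 0.05 the wheel effect was higher with the drug for 993 genes (5.47%) and lower for 840 (4.63%). DESeq2 called 77 genes, 67 higher and 10 lower, and voom called 0. These 1833 genes at an unadjusted p under 0.05 compare with 665 with the choroid plexus covariate, 373 with the midbrain covariate, 262 with both and 756 without the libraries of high Ttr. Ak4, a mitochondrial adenylate kinase, had 48.1, 37.9, 43.9, 30.3 and 42.8 CPM in the BCI-838 + exercise libraries, against 32.1, 29.3, 25.4 and 30.5 CPM in the BCI-838 libraries. Without the drug it had 29.3, 26.6, 32.9, 25.1 and 30.8 CPM in the exercise libraries, against 34.7, 34.1, 39.1, 34.4 and 38.4 CPM in the APP/PS1 controls. Its log2 fold change was 0.47 (SE 0.11) with and -0.32 (SE 0.11) without the drug, and the difference had an adjusted p of 0.36 by edgeR. Without BCI-838 + exercise replicate 4, the library of that group with the lowest Ak4, edgeR called the difference (adjusted p = 0.0289). Slc7a8 had log2 fold changes of 0.49 with and -0.10 without the drug. The choroid plexus genes Ttr and Calml4 and the cilia gene Ccdc40 were named in this direction too, with 5.41 with and -7.36 without the drug for Ttr, the library measure given above. In the other direction Prr16 had -0.94 with and 0.22 without the drug, Mogat1 -2.16 with and 0.70 without the drug, and the endothelial membrane protein Itm2a -0.33 with and 0.29 without the drug. The smooth muscle gene Cnn1 had -1.42 with and 0.98 without the drug and the desmosomal cadherin Dsc3 -3.73 with and 2.27 without the drug.

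Among stress pathways, 14 of 20 glucocorticoid-responsive genes were higher (median 0.10, 0.13 without and 0.0036 with the drug). Hsd11b1, which regenerates active glucocorticoid, was at 30.4 to 39.4 CPM with a wheel (median 35.4), against 26.4 to 39.4 CPM without (median 29.1), with a log2 fold change of 0.23 (SE 0.07), and Fkbp5, a co-chaperone of the glucocorticoid receptor, had a log2 fold change of 0.31 (SE 0.15). Endoplasmic reticulum chaperone and unfolded protein response genes were lower in 19 of 25 cases (median -0.06), and in 20 without the drug, where 8 were lower at an unadjusted p under 0.05 (3.08% of all genes). Hspa5, the main chaperone of that compartment, was at 140.2 to 198 CPM with a wheel (median 150.4), against 148 to 215 CPM without (median 175), with a log2 fold change of -0.30 (SE 0.10) without and -0.06 (SE 0.11) with the drug, and Xbp1, a transcription factor of the response, had a log2 fold change of -0.17 (SE 0.08). Of the cytosolic heat shock genes 7 of 20 were higher (median -0.04).

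The remaining lists stayed near the median of all genes or had few members. Higher with a wheel were 4 of 15 genes of resting astrocytes (median -0.06), 8 of 17 of reactive astrocytes (median -0.08), 3 of 10 of oligodendrocyte precursors (median -0.08) and 7 of 23 of cholesterol synthesis and uptake (median -0.04). Of 17 oligodendrocyte and myelin genes 15 were higher without the drug (median 0.11) and 4 with it (median -0.06). Of 8 opioid genes 2 were higher (median -0.16), and of 5 haemoglobin and erythroid genes 1 was higher (median -0.13). Loci that take up ribosomal RNA reads were lower in 3 of 3 cases (median -0.34).

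**Figure D4:**
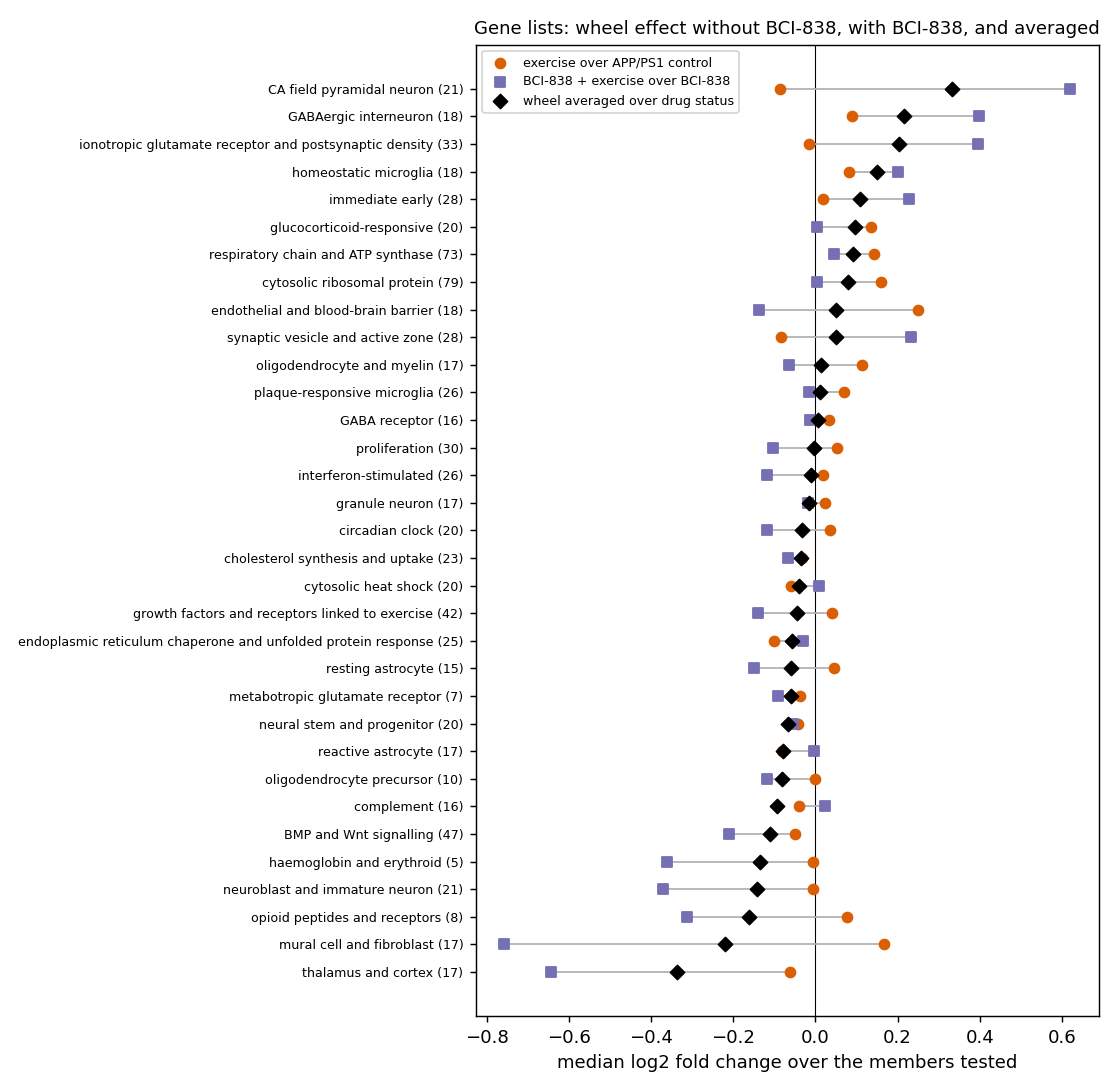
Median log2 fold change of each gene list for exercise over APP/PS1 control (circles), BCI-838 + exercise over BCI-838 (squares) and the wheel averaged over drug status (diamonds), with the number of members tested in brackets. Among the lists drawn the averaged medians run between -0.34 for thalamus and cortex and 0.33 for the CA field. The choroid plexus and dorsal midbrain lists, whose medians lie beyond the axis, and the 2 lists of 3 genes (ribosomal RNA loci and transgene-related) are left out.

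Running also shifts the daily rest and activity of rodents, and 7 of 20 circadian clock genes were higher with a wheel (median -0.03). Nr1d1, a repressor of the clock, was at 204 to 278 CPM with a wheel (median 243), against 200.02 to 244 CPM without (median 210.4), with a log2 fold change of 0.15 (SE 0.06). Nr1d1 overlaps Thra on the opposite strand. Cry1, a core repressor of the clock, was chosen after its values were seen. It had 12.1, 17.5, 17.7, 17.9 and 11.95 CPM in the BCI-838 + exercise libraries, against 18.2, 19.1, 19.5 and 18.4 CPM in the BCI-838 libraries, and all 5 values were below all 4. In this comparison 715 of all genes (3.94%) lay below in this way and 783 (4.31%) above. Of the clock genes 3 lay below and 2 above. The log2 fold change of Cry1 was -0.28 (SE 0.14) with the drug, -0.06 (SE 0.13) without it, and 0.06 with the drug once the midbrain covariate was included. The E-box CACGTG, which clock factors bind and which reads the same on both strands, was found in 5 of 18 clock gene promoters (27.8%), against 8.09% of 27025 genes with a promoter in the RefSeq table. The 300 bases of the Cry1 promoter in GRCm38.p6, chr10:85185005-85185304 on the minus strand, carry it once, in capitals, while those of Nr1d1 and Cry2 do not hold it, and a match is a description of the letters, not a measured binding site.
Cry1: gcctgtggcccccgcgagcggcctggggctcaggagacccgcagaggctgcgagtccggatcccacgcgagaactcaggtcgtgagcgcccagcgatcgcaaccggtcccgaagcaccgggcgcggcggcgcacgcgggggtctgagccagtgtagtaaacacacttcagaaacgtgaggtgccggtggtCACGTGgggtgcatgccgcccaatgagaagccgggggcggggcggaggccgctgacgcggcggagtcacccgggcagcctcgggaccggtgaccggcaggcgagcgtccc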

How the data were processed

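The authors deposited whole-number read counts per gene in a table of the whole series. The submitters' processing notes name STAR, HTSeq, DESeq and build mm10, while versions and strand setting are not given there. Further overlaps with exons of the opposite strand were Igfbp7 with Polr2b, Sox17 with Gm37587, Rps2 with Snhg9, F13a1 with Gm30489 and Stab1 with Nt5dc2. The labels gave each library its group. Genes were filtered with filterByExpr (minimum count 10, minimum total 15), scaled with TMM factors and fitted with a mean for each of the 4 APP/PS1 groups in edgeR 4.0.16 under R 4.3.3. Robust quasi-likelihood F tests were adjusted by Benjamini-Hochberg over all 18155 genes, with calls under 0.05. The standard error is the size of the log2 fold change over the root of its F statistic. No 2 libraries agreed within sampling noise. List levels are mean log2 CPM with a prior count of 2.

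The members and the 37 gene lists were chosen with earlier results of these data known. Named genes are the 12 with the smallest p in each direction for the averaged effect, 5 in each direction for each comparison and for the difference, all without clone-named genes, and up to 4 members of a list. Some genes that the rule names are not reported here. App, Prnp, Grm2, Grm3 and Bdnf are always given. Alternatives were a fit of all 24 libraries, DESeq size factors, other filters, DESeq2 1.42.0, voom with quality weights (limma 3.58.1), 1 surrogate variable (sva 3.50.0), tissue covariates, an additive model, a replicate block and leaving out libraries. The fit was also run on simulated counts, drawn for each gene independently and without RNA of neighbouring tissue. That run therefore does not bear on the tissue differences between these libraries.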

Additional observations from a re-analysis of the deposited data

Results flagged for a closer look

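Of 496 groups of values looked at, 26 had a library far from the others of its group, and chance gives about 1 in 20. Each value is followed by the median of its group.

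Exercise replicate 4 had B230119M05Rik at 0.0810 CPM (median 0.139), Cryl1 at 11.7 CPM (median 13.9), Mogat1 at 1.75 CPM (median 0.538) and the neural stem and progenitor list at a mean of 3.03 on the log2 CPM scale (median 3.53). Exercise replicate 5 had Cck at 315 CPM (median 185), Nbl1 at 74.8 CPM (median 47.95) and Prr16 at 3.45 CPM (median 5.33).

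BCI-838 + exercise replicate 1 had Bmp7 at 1.45 CPM (median 2.85). BCI-838 + exercise replicate 2 had App at 3348 CPM (median 4036) and the cytosolic heat shock list at a mean of 6.25 on the log2 CPM scale (median 6.44). BCI-838 + exercise replicate 5 had Akd1 at 0.892 CPM (median 0.162), Calml4 at 1.35 CPM (median 0.162), Ccdc40 at 3.53 CPM (median 1.54), Rps2 at 331 CPM (median 318), Sox2 at 63.3 CPM (median 49.5), Ttr at 297 CPM (median 2.29) and the choroid plexus and ependyma list at a mean of 2.23 on the log2 CPM scale (median -0.77).

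APP/PS1 control replicate 1 had Itm2a at 44.9 CPM (median 35.9) and the respiratory chain and ATP synthase list at a mean of 6.59 on the log2 CPM scale (median 6.42). APP/PS1 control replicate 5 had Slco1a4 at 50.8 CPM (median 39.5).

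BCI-838 replicate 1 had Ntf3 at 4.81 CPM (median 1.09) and the immediate early list at a mean of 3.99 on the log2 CPM scale (median 4.17). BCI-838 replicate 2 had Grm2 at 101 CPM (median 81.5). BCI-838 replicate 4 had Adra1d at 11.9 CPM (median 27.6), Dsc3 at 4.38 CPM (median 0.616) and Slc5a7 at 1.03 CPM (median 0.760).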

How the results depend on the processing

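By edgeR the count of called genes was 0 in each comparison and stayed at 0 with DESeq size factors, either other filter, 1 surrogate variable, each tissue covariate, both covariates together (chosen after seeing the data) and without the libraries of high Ttr, and in the additive model for the averaged effect. DESeq2 called 24 genes averaged, 72 without the drug, 462 with it and 77 for the difference, and voom called 1 averaged and 997 with the drug. The fit of all 24 libraries called 1 without the drug. Leaving out each library in turn gave 0 to 1 called genes averaged, 0 to 1 without the drug and 0 to 1 for the difference, and 0 with the drug. The libraries concerned were APP/PS1 control replicate 1 (Sulf1, both counts), APP/PS1 control replicate 5 (Lor, averaged) and BCI-838 + exercise replicate 4 (Ak4, difference). Replicate numbers did not pair libraries: the deviations of 27 same-numbered pairs correlated from -0.26 to 0.40, 8 of them over 0.1, and in 12 of 54 cases a library correlated best with its own number. With a replicate block edgeR called 5 genes averaged (Cnih2, Emb, Lor, Ndnl2 and Sulf1), 1 without the drug and 57 with it.

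Of 3090 gene values under alternatives, 2984 kept their direction and stayed uncalled, 73 kept it and were called, and 33 changed direction. The cause was not tested. At an unadjusted p under 0.05 the averaged effect had 534 genes with the midbrain covariate and 717 with both covariates, against 1931 in the design as reported. With the drug the counts were 233 and 341, against 2714, and for the difference 373 and 262, against 1833. The interneuron list median turned to -0.03 with both covariates, against 0.22. With the midbrain covariate App was at -0.0561, Prnp -0.0230, Grm2 0.0742, Bdnf -0.16 and, with the drug, Cry1 0.0587 (log2 fold changes). With both covariates App was at -0.12, Prnp -0.0878, Grm2 0.13, Bdnf -0.14, Junb -0.0346 and, with the drug, Cry1 0.0480. With the CA field minus granule covariate App was at -0.00392 and Grm2 0.0509, and without the libraries of high Ttr App was at -0.0218 and Grm2 0.29. Bdnf was at -0.0415 with 1 surrogate variable and -0.0363 with the replicate block. Leaving out 1 library gave -0.00669 to 0.0639 for App, -0.12 to 0.0679 for Grm2, -0.15 to 0.0258 for Grm3 and -0.0967 to 0.0923 for Bdnf. Of 1254 list medians under alternatives, 1162 kept their sign. Their moves were also set against the SD of the list's mean log2 CPM between libraries of a group, and 1249 were smaller. That SD was 1.28 for the choroid plexus list and 1.57 for the dorsal midbrain list. Moves from -1.07 to 0.05 and from -1.09 to 0.30 in these lists, which change sign, thus pass, so the count of 1249 does not show stability.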

Other observations

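A list of 12 genes of macrophages at the borders of the brain was chosen after seeing the data, and Siglec1, Cbr2 and Pf4 were picked from these libraries, so its values are a description. All 12 genes were lower with a wheel averaged over drug status (median log2 fold change -0.74), 10 of them at an unadjusted p under 0.05 (4.85% of all genes). Without the drug 10 of 12 were lower (median -0.42), 0 of them at an unadjusted p under 0.05 (3.08% of all genes). With the drug 12 of 12 were lower (median -1.02), 9 of them at that level (7.26% of all genes). The mean log2 CPM of the list was -1.37 to 0.14 with a wheel (median -0.57), against -0.72 to 0.62 without (median 0.15), so the libraries overlapped. F13a1, a transglutaminase of these cells, had a log2 fold change of -1.04 (SE 0.26), Mrc1, the mannose receptor, -0.74 (SE 0.24), and Lyve1, a hyaluronan receptor, -0.99. Stab1 had -0.06, at group means of 17.1 to 19.3 CPM. All other members were at low levels, with group means of at most 3.92 CPM (Mrc1) and down to 0.103 CPM (Siglec1). No gene of the list was called by edgeR. The median of the list was -0.39 with the midbrain covariate, -0.26 with the choroid plexus and midbrain covariates together, and -0.86 without the libraries of high Ttr.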
